A study of Mus musculus with 4 samples.

Results

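The transition from the second immature stage of adult-born granule cells (aGCs), GCimm2, to the young stage, GCyoung, was followed in single-nucleus RNA sequencing (snRNA-seq) of the mouse dentate gyrus. Its members were the nuclei that the authors' own cluster line places in GCimm2 or GCyoung in the cohorts 4 and 8 weeks after labelling (w4 and w8), the only libraries with at least 10 nuclei of both. They numbered 2601 of the 14367 nuclei of the series, with 406 of GCimm2 and 1979 of GCyoung in w4 and 28 and 188 in w8. The mice were Ascl1CreERT2;CAGfloxStopSun1sfGFP animals of both sexes on a C57BL/6J background, which the paper lists as 6 to 8 weeks old. In these mice tamoxifen makes Cre recombinase mark the nuclear envelope of the targeted stem cells and of all their later progeny. The mark is the fluorescent protein Sun1-sfGFP. Both groups therefore carried the same alleles and the same treatment. The mice were killed 4 weeks (w4) or 8 weeks (w8) after tamoxifen, and the paper does not state their age at that time. Each library is 1 pool of left dentate gyri from 4 mice, dissected, frozen, sorted for the tag and run with 10x Genomics 3′ chemistry, so that the spread between libraries is not the spread between animals. The label dates a cell by when its stem cell recombined, not by its last division, and w4 and w8 pools hold cells of several ages.

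Dentate granule cells are the excitatory input neurons of the hippocampus and are among the few neurons that many mammals keep adding in adult life. An immature granule cell still extends an axon, the mossy fibre, toward CA3 and a dendrite into the molecular layer, and its few synapses are at first GABAergic and slow. A young granule cell has spines and glutamatergic input, and for some time it is more excitable and more plastic than its mature neighbours. The comparison asks which functions are gained and which are lost between these stages.

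Nuclei of the 2 stages were largely set apart in the authors' pseudo-time, a position along the trajectory that they computed from expression. Its median was 19.9 in GCimm2 and 27.2 in GCyoung in w4, and 20.3 and 27.3 in w8. No nucleus of any cluster lay between 22 and 24 in w4, w8 or the earlier libraries. Such a nucleus could still make up as much as 0.0813% of the 3690 nuclei with a pseudo-time in w4 and 0.0996% of the 3013 in w8 (3 counts of the total). The limits 22 and 24 were set by hand and by no rule given beforehand, so the empty stretch is a description and tests nothing. In w4, 8 nuclei labelled GCimm2 lay above the empty stretch and 5 labelled GCyoung lay below it, and in w8 there were 0 and 2. The labels also overlapped. In w4, 45 of 406 GCimm2 nuclei lay above the lowest GCyoung nucleus, and 144 of 1979 GCyoung nuclei lay below the highest GCimm2 nucleus. In w8 these were 3 of 28 and 1 of 188. As the clusters and the pseudo-time both come from the expression values compared here, the p-values below describe how the stages differ and are no independent evidence that the stages exist.

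**Figure D1:**
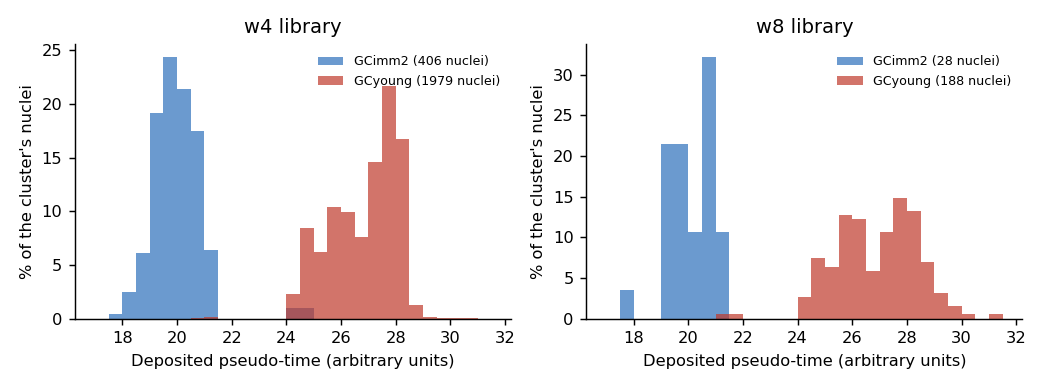
Distribution of the authors' pseudo-time (arbitrary units, horizontal) in GCimm2 (blue) and GCyoung (red) nuclei of w4 (left) and w8 (right), as a percentage of the cluster's nuclei in bins of 0.5. The medians are 19.9 and 27.2 in w4 and 20.3 and 27.3 in w8, and the stretch from 22 to 24 holds no nucleus.

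Raw counts of unique molecular identifiers (UMIs, 1 per captured RNA molecule) were added up over the nuclei of each cluster in each library. These sums held 2317325 UMIs (GCimm2) and 15789336 (GCyoung) in w4, and 150112 and 1434526 in w8. Levels are given as CPM, the counts of a gene per 1000000 counts of the sum. A count of 0 in the small w8 GCimm2 sum allows up to 20.0 CPM, against 1.29 CPM in w4. GCyoung nuclei were deeper, with a median of 7480 UMIs per nucleus against 5382.5 in w4 (1.39 times) and 7030.5 against 4661 in w8 (1.51 times), so a gene with equal CPM in both stages had more UMIs per nucleus in GCyoung. Among nuclei that could be called male or female from sex-linked transcripts, 27.0% of GCimm2 and 15.6% of GCyoung were male in w4, and 90.0% and 81.5% in w8, and the part of the sex mix in the results was examined only by repeating the fit within each sex. Between any pair of libraries, 1 to 6 nuclei had the same barcode.

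Of 13513 genes tested, 2553 (18.9%) changed by at least 1.5-fold at an adjusted p of at most 0.05 in edgeR's quasi-likelihood test, 1253 (9.27%) upward and 1300 (9.62%) downward from GCimm2 to GCyoung. The fit held all 29 sums with at least 10 nuclei of the trajectory and of astrocytes, with library as a block, so that a fitted change also draws on w2, where GCimm2 had 545 nuclei. Its TMM factors put GCyoung 0.276 log2 units (w4) and 0.422 (w8) higher against GCimm2 than plain CPM does, so a fitted change need not equal the ratio of the CPM printed beside it. Of the called genes, 2153 moved the called way in both w4 and w8, 1135 upward and 1018 downward. These counts are uneven by depth. A gene with no UMI in the small w8 GCimm2 sum cannot count as falling there, whereas any UMI in GCyoung makes it count as rising. In this fit losses were the steeper side. A fold change of at least 4 was reached by 374 of the genes that fell and 225 of those that rose. The balance depends on the measure, as the mean of the deposited log2 values per nucleus passed 1.5-fold upward for 189 genes and downward for 66. The w4 library carried most of the evidence, and without it 487 genes were called, 274 upward and 213 downward. With RLE factors in place of TMM, under which the median log2 change over all tested genes went from 0.03 to -0.07, 1057 genes were higher and 1586 lower, and with DESeq2 682 and 1152. In what follows, a pair of counts in brackets beside a gene list gives its genes higher and lower in GCyoung, in this order, under the alternative named. Genes named below were taken from called genes that moved the same way in w4 and w8, apart from those picked besides or given as not passing. Their agreement between w4 and w8 was fixed by that choice and adds no evidence. That the sums of the stages do not overlap follows largely from the same choice.

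**Figure D2:**
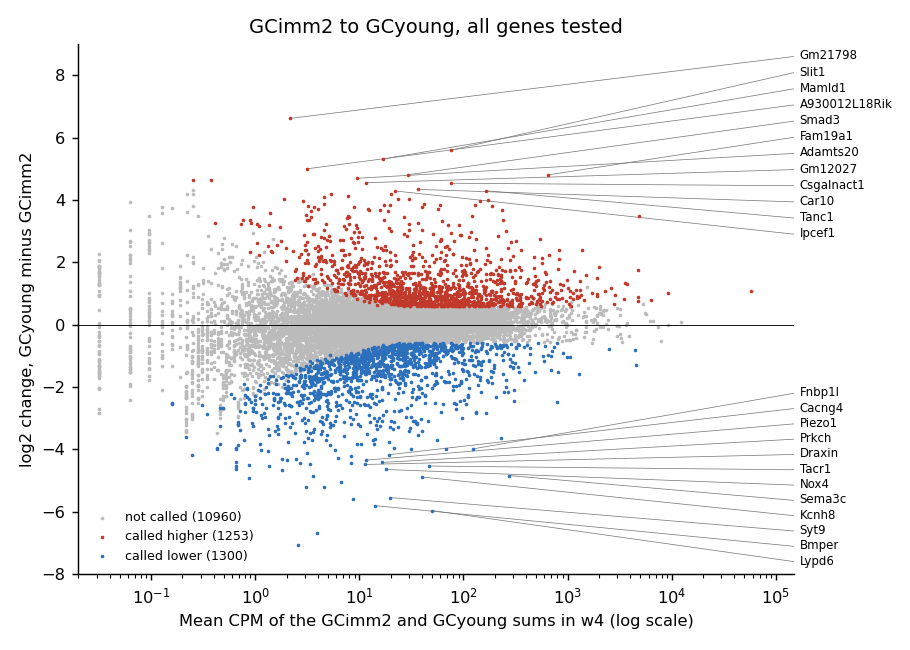
Fitted log2 change from GCimm2 to GCyoung (vertical) against the mean CPM of the stages in w4 (horizontal, log scale) for the genes tested that have a UMI in w4, with the 12 largest increases and 12 largest decreases of the same direction in w4 and w8 and at least 50 UMIs named. Genes called higher (1253) are red, genes called lower (1300) blue and the others grey. The named increases run from 4.29 to 6.61 and the named decreases from -5.96 to -3.98. The 6.61 is the fitted value of Gm21798, which had no UMI in either GCimm2 sum, so that its increase is known only as at least 3.49-fold.

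A test of whether the change itself differed between w8 and w4 called 0 of 13513 genes with edgeR (0%), while 462 had an unadjusted p under 0.05. It also called 0 with RLE factors (458 at an unadjusted p under 0.05) and 0 in a fit of the neighbouring clusters alone (451), and 1 gene when genes with few counts were kept. The w8 pair is small, so this shows neither that the change was the same at both ages nor that it was not.

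Among the 12 largest increases, Slit1 had the clearest one. Slit1 (ENSMUSG00000025020; GRCm38 chromosome 19, 41600257 to 41743665, minus strand), a secreted ligand of Robo receptors that repels axons, went from 4.32 to 147 CPM in w4 and from 0 to 128 in w8 (log2 change 5.59, standard error 0.35, adjusted p = 4.0e-18). The GCimm2 level in w8 was a count of 0, yet both GCyoung sums stood far above the limit that such a count allows. Fam19a1, a secreted chemokine-like protein also called Tafa1, gave the most UMIs of this group, from 41.0 to 1252 CPM in w4 and from 13.3 to 1490.4 in w8 (log2 change 4.80, standard error 0.37, adjusted p = 7.0e-15). Smad3, which carries TGF-beta and activin signals to the nucleus, went from 3.45 to 55.7 CPM in w4 and from 0 to 71.1 in w8 (log2 change 4.81 ± 0.42). Csgalnact1, an enzyme that starts chondroitin sulphate chains, went from 2.16 to 150.3 CPM in w4 and from 0 to 156 in w8 (log2 change 4.54 ± 0.32). All of these were high in both GCyoung sums and low in both GCimm2 sums. Tanc1, a scaffold of the postsynaptic density, rose from 14.2 to 314 CPM in w4 and from 6.66 to 309.5 in w8 (log2 change 4.29 ± 0.29).

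Among the remaining 7 increases, Car10, a carbonic anhydrase-related protein without enzyme activity that binds neurexins, had the highest level and went from 3.02 to 71.0 CPM in w4 and from 6.66 to 101 in w8. Mamld1 (log2 change 5.31 ± 0.49), a mastermind-like protein, Adamts20 (log2 change 4.69 ± 0.51), a secreted metalloprotease, Ipcef1 (log2 change 4.29 ± 0.43), a partner of Arf exchange factors, and the long noncoding RNA Gm12027 (log2 change 4.55 ± 0.50) stood between 0.863 and 3.02 CPM in the w4 GCimm2 sum and between 18.3 and 41.1 CPM in w4 GCyoung. A930012L18Rik, an antisense transcript, reached 5.83 CPM in w4 and 1.39 CPM. Gm21798 had no UMI in either GCimm2 sum, and setting 3 counts over both as the limit of that 0 makes it at least 3.49-fold higher in GCyoung, where it stood at 4.31 CPM in w4 and 3.49 CPM. Without w4, Gm21798 and A930012L18Rik were no longer called, and the other 10 were. Gm21798 was not called by DESeq2 either.

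The largest decreases were of genes that were almost silent in GCyoung. Lypd6 (GRCm38 chromosome 2, 50066429 to 50193569), a membrane-anchored modulator of nicotinic receptors and Wnt signalling, fell from 98.4 to 1.46 CPM in w4 and from 119.9 to 1.39 in w8 (log2 change -5.96, standard error 0.31, adjusted p = 7.6e-21). Sema3c (chromosome 5, 17574281 to 17730268), a secreted semaphorin that guides axons through neuropilins and plexins, gave the most UMIs of them, from 535 to 14 CPM in w4 and from 539.6 to 18.1 in w8 (log2 change -4.84, standard error 0.36, adjusted p = 1.1e-15). In both libraries the lower GCimm2 value of either gene was over 20 times the higher GCyoung value. Syt9, a synaptotagmin that senses calcium at vesicles, fell from 38.8 to 0.570 CPM in w4 and from 53.3 to 1.39 in w8 (log2 change -5.54 ± 0.41). Both GCimm2 sums were again far above both GCyoung sums. Tacr1, the receptor of substance P, fell from 90.2 to 2.72 CPM in w4 and from 60.0 to 3.49 in w8 (log2 change -4.53 ± 0.31). Fnbp1l, an F-BAR protein that links membranes to actin, fell from 236 to 10.4 CPM in w4 and from 153 to 9.76 in w8 (log2 change -3.98 ± 0.26).

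Bmper (log2 change -5.80 ± 0.49), a secreted binder of BMPs, Nox4 (log2 change -4.64 ± 0.38), an oxidase that makes hydrogen peroxide, and Kcnh8 (log2 change -4.89 ± 0.31), a slow potassium channel, followed the same course. So did Draxin (log2 change -4.48 ± 0.43), a secreted repellent of growing axons, Prkch (log2 change -4.42 ± 0.37), a protein kinase C, Piezo1 (log2 change -4.34 ± 0.41), a mechanically gated channel, and Cacng4 (log2 change -4.17 ± 0.41), an auxiliary subunit of AMPA receptors. Each of these 7 stood between 22.01 CPM (Draxin) and 77.2 CPM (Kcnh8) in w4 GCimm2 and between 0.570 CPM (Bmper) and 2.22 CPM (Kcnh8) in w4 GCyoung. Kcnh8, Nox4, Draxin, Piezo1 and Cacng4 were no longer called without w4, where Kcnh8 had a log2 change of -2.32 and Nox4, Piezo1 and Cacng4 had changes between -4.40 and -3.32. Draxin had 1 UMI in GCimm2 and 0 in GCyoung of w8, so no change can be read for it there.

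**Figure D3:**
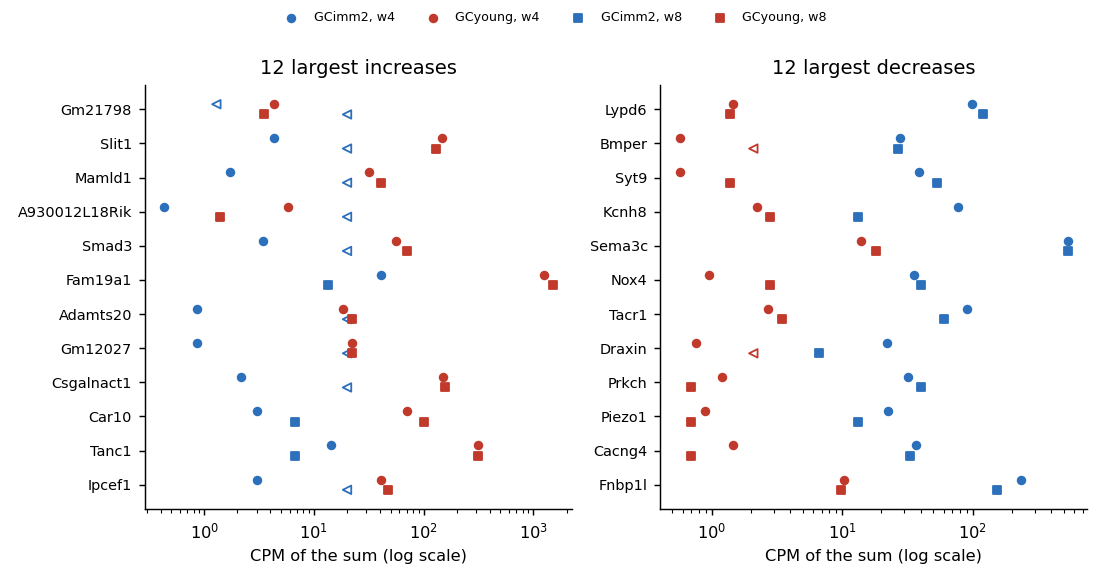
CPM (log scale) of the 12 largest increases and 12 largest decreases in the GCimm2 (blue) and GCyoung (red) sums of w4 (circles) and w8 (squares), with open triangles at the value of 3 UMIs where the count was 0. In w4 the stages lie apart for all 24 genes, and the triangles mark counts of 0, in w4 GCimm2 for Gm21798 alone (up to 1.29 CPM), in w8 GCimm2 for 9 of the increases (up to 20.0 CPM) and in w8 GCyoung for Bmper and Draxin (up to 2.09 CPM).

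Axon growth and guidance held the list with the largest share of losses, markers aside. Of 25 semaphorins, plexins and neuropilins tested, 14 fell and 1 rose (median log2 change -1.05, against 0.03 over all genes tested). Besides Sema3c they included the membrane semaphorin Sema4g, which fell from 51.8 to 5.70 CPM in w4 and from 33.3 to 6.97 in w8 (log2 change -2.66 ± 0.24). The receptor gene Plxna2 fell from 767 to 212 CPM in w4 and from 853 to 215 in w8 (log2 change -1.51 ± 0.23). It kept a larger part of its GCimm2 level than Sema3c did in both libraries. The exception was Sema5b, from 19.9 to 33.2 CPM in w4 and from 6.66 to 41.1 in w8 (log2 change 1.58 ± 0.27). Among 71 growth cone and microtubule proteins 17 fell and 1 rose (median -0.375). Stmn1, which destabilizes microtubules, fell from 94.1 to 12.4 CPM in w4 and from 66.6 to 11.2 in w8 (log2 change -2.53, standard error 0.21, adjusted p = 1.2e-13). Gap43, a growth cone protein, fell from 73.4 to 11.9 CPM in w4 and from 46.6 to 10.5 in w8 (log2 change -2.26 ± 0.28). The kinesin Kif21b fell from 55.7 to 8.61 CPM in w4 and from 40.0 to 3.49 in w8 (log2 change -2.31 ± 0.25). In each case both GCimm2 sums lay above both GCyoung sums. Without w4, 3 of the semaphorin list and 7 of the growth cone list were still called lower, and Sema4g and Gap43 were not among them.

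The other guidance families exchanged members. Slit and Robo genes had 3 genes higher and 2 lower of 6 tested (2 and 2 without w4). Slit1 rose as given above, while Slit2, a ligand of the same receptors, fell from 292 to 55.9 CPM in w4 and from 313 to 93.4 in w8 (log2 change -1.84 ± 0.25). Robo1, a receptor of both, fell from 823 to 339 CPM in w4 and from 1033 to 390.4 in w8 (log2 change -1.01, standard error 0.24, adjusted p = 0.0012). Robo2 rose from 375 to 976 CPM in w4 and from 293 to 1039 in w8 (log2 change 1.41, standard error 0.28, adjusted p = 1.2e-04). The stages did not overlap for either receptor, and the sums of w4 and w8 lay close together within a stage. Robo3, which modulates Slit responses at the midline, rose from 1.73 to 22.3 CPM in w4 and from 0 to 22.3 in w8. Netrin receptors did the same. Dcc, which draws axons toward netrin, fell from 7069 to 1946 CPM in w4 and from 6615 to 2526 in w8 (log2 change -1.31, standard error 0.36, adjusted p = 0.0061). Unc5c and Unc5d encode receptors that turn netrin into a repellent. Unc5c rose from 13.4 to 107 CPM in w4 and from 0 to 136 in w8 (log2 change 2.75 ± 0.34). Unc5d rose from 3.88 to 36.0 CPM in w4 and from 0 to 76.7 in w8 (log2 change 3.01 ± 0.48). The stages did not overlap for any of the 3 receptors. A rise from GCimm2 need not be a first appearance. Over all libraries Unc5d stood at 457 CPM in the earlier neuroblast cluster NB1 and 39.3 in GCyoung, but Unc5c at 19.6 and 109. Sema5b, Car10, Inpp4b, Rora and Slc1a3 were also higher in NB1 than in GCyoung, whereas Slit1, Fam19a1, Smad3 and Csgalnact1 were lower. Ephrins and Eph receptors had 4 lower (22.2%) and 2 higher (11.1%) of 18 (0 and 4 with DESeq2, 0 and 1 without w4). The higher share was near the 9.27% over all genes. Epha3 had a log2 change of -1.15 ± 0.23 and Epha7 of 0.66 ± 0.23. The Epha7 call was lost with DESeq2, RLE factors, no library block, either sex alone, without w4 or without w8. Without w4, Dcc and Robo2 were not called.

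Matrix genes moved both ways, with 6 higher and 11 lower of 46 integrins, laminins and matrix proteases and 3 higher and 4 lower of 21 proteoglycans and tenascins. Without w4 the lists had 2 higher and 1 lower each, and with DESeq2 4 and 8 of the first and 1 and 4 of the second. The membrane glypican Gpc4, a signal for glutamatergic synapse formation in other cells, rose from 11.2 to 109 CPM in w4 and from 13.3 to 107 in w8 (log2 change 3.84, standard error 0.28, adjusted p = 5.7e-16). Its relative Gpc1 fell from 25.5 to 8.11 CPM in w4 and from 26.6 to 4.88 in w8 (log2 change -1.46 ± 0.29). Both belong to the genes picked for moving alike in w4 and w8. Acan, the core protein of perineuronal nets, fell from 39.7 to 9.69 CPM in w4 and from 60.0 to 5.58 in w8 (log2 change -1.89 ± 0.28). The Gpc1 call was lost without w4. St8sia2, which adds polysialic acid to the adhesion molecule NCAM in growing neurons, belonged to no list and was looked at after the values were known. It fell from 59.6 to 2.60 CPM in w4 and from 46.6 to 4.88 in w8 (log2 change -3.98 ± 0.28). The transcript of its substrate Ncam1 was read from 1102 to 728 CPM in w4 and from 1219 to 707 in w8 and did not pass the test (log2 change -0.37, standard error 0.22, adjusted p = 0.28).

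Markers of immature neurons fell as a group, with 9 of 9 tested lower (6 without w4) and a median log2 change of -2.47. The genes are known markers and were listed with the study's results in view, so their direction is a check of the labels. Dcx, a microtubule protein of migrating and growing neurons, fell from 227 to 81.1 CPM in w4 and from 226 to 72.5 in w8 (log2 change -1.18 ± 0.22). Igfbpl1, a growth factor-binding protein, fell from 321 to 50.9 CPM in w4 and from 173 to 38.3 in w8 (log2 change -1.86 ± 0.39). Both genes were still read in GCyoung, at a lower level. Rgs6, a regulator of G proteins, fell from 1396 to 197 CPM in w4 and from 1379 to 255 in w8 (log2 change -2.47 ± 0.27). Sox4, a SoxC transcription factor of new neurons, fell from 41.9 to 6.02 CPM in w4 and from 33.3 to 2.09 in w8 (log2 change -2.78 ± 0.29). Its relative Sox11 fell from 278 to 60.99 CPM in w4 and from 266 to 64.8 in w8 (log2 change -1.78 ± 0.21). 1 of the 10 listed genes had no UMI in any of the 4 sums. Summed over the list the level was 3460 CPM in w4 GCimm2 and 493 in w4 GCyoung, and 2890 and 533 in w8. Dcx and Igfbpl1 were no longer called without w4.

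Sox4 and Sox11 are themselves among these markers. The sequence before the starts of the markers was searched for the core of the Sox recognition motif, ACAAAG, on either strand (CTTTGT on the printed one). RefSeq windows on GRCm38.p6 were found for 7 of the 9 genes, and the 250 bases before the RefSeq start held a match in 2 of these 7, Dcx and Draxin (2 of 8 windows), against 16.5% of 32851 windows of the same length over all genes. Both are shown, with Sema3c as the marker that fell most, 5′ to 3′ on the gene's strand and with matches in capitals. The Dcx window is chrX:143933125-143933374 (minus strand) with its match 8 bases before the start, that of Draxin is chr4:148130699-148130948 (minus strand) with matches 212 and 199 bases before it, and that of Sema3c is chr5:17574566-17574815 (plus strand) with none. The other Dcx window held none. GENCODE, from which the gene spans are taken, places the first base of Sema3c before this window and that of Dcx within the window shown, so these 2 windows lie wholly or in part inside the annotated genes. A match is a string of letters, not a binding site, and the share in the group rests on 7 genes, Sox4 and Sox11 among them. Whether Sox factors act on these genes was not tested.
Dcx: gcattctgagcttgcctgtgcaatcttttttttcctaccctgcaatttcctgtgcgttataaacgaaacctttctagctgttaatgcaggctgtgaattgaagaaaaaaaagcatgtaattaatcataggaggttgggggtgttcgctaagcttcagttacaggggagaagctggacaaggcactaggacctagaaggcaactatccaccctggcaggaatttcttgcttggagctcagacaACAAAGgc
Draxin: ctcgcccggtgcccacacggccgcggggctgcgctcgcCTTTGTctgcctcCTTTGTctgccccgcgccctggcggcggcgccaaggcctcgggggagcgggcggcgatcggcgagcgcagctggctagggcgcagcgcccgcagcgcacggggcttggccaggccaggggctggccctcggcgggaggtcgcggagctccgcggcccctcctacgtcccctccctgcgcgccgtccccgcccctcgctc
Sema3c: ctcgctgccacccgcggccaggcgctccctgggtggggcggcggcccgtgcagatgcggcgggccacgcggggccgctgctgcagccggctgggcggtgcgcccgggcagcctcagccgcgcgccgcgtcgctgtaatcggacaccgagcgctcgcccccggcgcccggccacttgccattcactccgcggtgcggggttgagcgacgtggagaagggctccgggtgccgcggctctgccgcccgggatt

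Markers of mature granule cells mostly rose, with 8 of 10 higher, 1 lower and a median of 1.31 (6 and 1 with DESeq2). Calb1, a calcium buffer of mature granule cells, rose from 22.01 to 115 CPM in w4 and from 6.66 to 86.4 in w8 (log2 change 2.23 ± 0.24). Ntng1, a membrane-anchored netrin-G that binds across synapses, rose from 6.47 to 74.2 CPM in w4 and from 13.3 to 108 in w8 (log2 change 3.77 ± 0.38). The member that fell was Kcnq5, a subunit of the M-type potassium channel, from 83.3 to 26.0 CPM in w4 and from 167 to 29.3 in w8 (log2 change -1.55 ± 0.29). Plxna4 did not pass the test (log2 change 0.53, standard error 0.24, adjusted p = 0.13), though it was called without w1. Granule cell lineage genes were 5 higher and 0 lower of 11 (5 and 1 with RLE factors, 4 and 1 with DESeq2). Dsp, desmoplakin, rose from 2.59 to 38.0 CPM in w4 and from 0 to 25.8 in w8 (log2 change 4.20 ± 0.38). Prox1, which specifies granule cells, was read from 819.9 to 460.5 CPM in w4 and from 906 to 495 in w8 and did not pass the test (log2 change -0.48, standard error 0.20, adjusted p = 0.083). It was called lower, however, with RLE factors, with DESeq2 and in the fit of only the 4 sums.

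The vesicular glutamate transporters moved in opposite directions. Slc17a6, the vesicular glutamate transporter VGLUT2, fell from 36.2 to 2.66 CPM in w4 and from 46.6 to 0.697 in w8 (log2 change -3.75, standard error 0.33, adjusted p = 7.8e-13). Slc17a7, VGLUT1, which serves most cortical and hippocampal synapses, rose from 66.5 to 157 CPM in w4 and from 73.3 to 179 in w8 (log2 change 1.33, standard error 0.21, adjusted p = 1.5e-06). Both were picked among genes with the same direction in w4 and w8, and the groups did not overlap for either gene. Of 68 genes of the release machinery 18 rose and 9 fell (median 0.275), with 12 and 8 called by DESeq2. Sv2c, a synaptic vesicle glycoprotein, rose from 5.18 to 54.9 CPM in w4 and from 0 to 53.0 in w8 (log2 change 3.23 ± 0.33). Its relative Sv2b fell from 105 to 6.33 CPM in w4 and from 139.9 to 3.49 in w8 (log2 change -3.68 ± 0.33). Again the stages did not overlap. Syt13 and Syt17, synaptotagmins that do not bind calcium in the usual way, rose by log2 changes of 2.84 and 2.26, and Rims3, a small active-zone protein, fell (log2 change -1.68 ± 0.30). Without w4, 7 of this list were called higher and 2 lower, and Rims3 was not called.

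Ionotropic glutamate receptors had 4 genes higher (22.2%) and 1 lower (5.56%) of 18. The higher share was above the 9.27% over all genes and the lower share under the 9.62%. Grin2a, the NMDA receptor subunit that is added as synapses mature, rose from 959 to 3024 CPM in w4 and from 933 to 3101 in w8 (log2 change 1.84, standard error 0.29, adjusted p = 1.4e-06). Grin2b, the subunit of young synapses, was read from 1946 to 1898 CPM in w4 and from 2072 to 2077 in w8 and did not pass the test (log2 change 0.26, standard error 0.23, adjusted p = 0.49). Among AMPA receptor subunits Gria3 rose from 287 to 686 CPM in w4 and from 313 to 569 in w8 (log2 change 1.33 ± 0.22). Gria4 fell from 454 to 173 CPM in w4 and from 513 to 162 in w8 (log2 change -1.21 ± 0.21). Both genes were read in both stages, and the balance between them shifted. Gria1 did not pass the test (log2 change 0.53, standard error 0.27, adjusted p = 0.18). The calls of Grin2a, Gria3 and Gria4 also held without w4, where the list had 3 genes higher and 1 lower.

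GABA receptors had 4 higher and 1 lower of 13 (median 0.387), but DESeq2 called 1 higher and 1 lower, and without w4 there were 1 and 0. Gabra4, a subunit of extrasynaptic receptors in granule cells, rose from 92.3 to 273 CPM in w4 and from 79.9 to 257 in w8 (log2 change 1.66 ± 0.20). Gabrb2 rose from 225 to 415 CPM in w4 and from 199.8 to 411 in w8 (log2 change 1.00 ± 0.25). Both genes were already read in GCimm2. Gabrg3 fell from 599 to 264 CPM in w4 and from 613 to 321 in w8 (log2 change -0.93 ± 0.25). Transporters that set chloride and clear transmitter split, with 4 higher (16.0%) and 5 lower (20.0%) of 25 (2 and 4 with DESeq2, 1 and 2 without w4). Over all genes the shares were 9.27% and 9.62%. Slc12a5, the chloride extruder KCC2 on which inhibition by GABA depends, rose from 46.6 to 90.2 CPM in w4 and from 60.0 to 82.3 in w8 (log2 change 0.97 ± 0.20). Slc6a11, a GABA transporter, fell from 109 to 33.2 CPM in w4 and from 113 to 27.9 in w8 (log2 change -1.48 ± 0.22). Without w4, Gabrb2, Gabrg3 and Slc12a5 were not called, and Gabrb2 and Slc12a5 were not called by DESeq2 either. The Gabrg3 call was also lost in male nuclei, with no library block and with sums of at least 5 nuclei, and that of Slc12a5 in male nuclei.

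Postsynaptic scaffolds and receptor partners gained, with 21 higher and 7 lower of 64 (median 0.357), of which DESeq2 called 15 and 6, and 7 and 1 were left without w4. Auxiliary subunits were called in opposite directions. Neto1, a partner of kainate and NMDA receptors, rose from 24.6 to 203 CPM in w4 and from 79.9 to 195 in w8 (log2 change 2.80 ± 0.27). Neto2 fell from 24.2 to 4.88 CPM in w4 and from 13.3 to 9.76 in w8 (log2 change -1.79 ± 0.28). The stages lay apart for Neto1, whereas the w8 GCimm2 value of Neto2 rests on 2 UMIs and its fitted change in w8 alone was -0.03 ± 1.17, so that no fall could be seen there. Cacng3 rose from 13.4 to 105 CPM in w4 and from 20.0 to 116 in w8 (log2 change 2.69 ± 0.33), and Cacng4 fell as given above, both being subunits that carry AMPA receptors to synapses. Cnksr2, a scaffold of Ras signalling at the synapse, rose from 235 to 725 CPM in w4 and from 259.8 to 709.6 in w8 (log2 change 1.82 ± 0.23). Neto2 was not called without w4, nor Cacng3 by DESeq2.

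Receptors of peptides and other modulators were called in both directions. Of 18 peptide genes 8 were lower and 5 higher (median -0.557). Of 22 receptors of monoamines, acetylcholine and purines 7 were lower (31.8%) and 3 higher (13.6%, not far from the 9.27% over all genes), with a median of -0.274. Summed over its members, the peptide list fell from 389 to 272 CPM in w4 and from 406 to 258 in w8. The sum of the other list rose from 791 to 839 CPM in w4 and from 746 to 954 in w8. Of the lower calls 5 of the 8 and 4 of the 7 moved downward in both w4 and w8, while all of the higher calls moved upward in both. This contrast cannot be read as better agreement of the rises. A gene with no UMI in the small w8 GCimm2 sum cannot fall there and rises with any UMI in GCyoung. Without w4 the peptide list had 2 higher and 3 lower and the other 1 and 1, and DESeq2 called 3 and 6 and 1 and 5. Cnr1, the cannabinoid receptor of presynaptic terminals, fell from 65.2 to 5.89 CPM in w4 and from 79.9 to 9.06 in w8 (log2 change -3.19, standard error 0.24, adjusted p = 3.4e-15). Chrm3, a muscarinic receptor, fell from 214 to 52.9 CPM in w4 and from 219.8 to 84.3 in w8 (log2 change -1.65 ± 0.26). Both GCyoung sums lay below both GCimm2 sums for either gene. Oprm1, the mu opioid receptor, rose from 7.77 to 51.9 CPM in w4 and from 13.3 to 56.5 in w8 (log2 change 3.03 ± 0.34). Vipr1, a receptor of vasoactive intestinal peptide, rose from 10.8 to 26.0 CPM in w4 and from 13.3 to 22.3 in w8 (log2 change 1.64 ± 0.34). Chrm3 and Vipr1 lost the call without w4 and Oprm1 with DESeq2.

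Adhesion molecules of the synapse were called in both directions. Of 83 tested 21 rose and 18 fell (16 and 17 with DESeq2, 11 and 7 without w4), and of 35 cadherins and protocadherins 8 rose and 5 fell (5 and 2 without w4). Il1rapl2, a receptor-like organizer of synapses, rose from 35.8 to 229 CPM in w4 and from 13.3 to 296 in w8 (log2 change 2.75 ± 0.32). Flrt2, a ligand of Unc5 and latrophilin receptors, rose from 0.863 to 15.1 CPM in w4 and from 0 to 17.4 in w8 (log2 change 3.45 ± 0.47). The stages did not overlap for Il1rapl2, whereas the w8 count of 0 for Flrt2 allows up to 20.0 CPM, which is above both of its GCyoung values. Its relative Flrt1 fell from 109 to 11.6 CPM in w4 and from 133 to 18.8 in w8 (log2 change -2.80 ± 0.23). The contactin genes Cntn2 and Cntn6 encode anchored adhesion molecules of axons. Cntn2 fell from 56.5 to 4.12 CPM in w4 and from 40.0 to 4.88 in w8 (log2 change -3.42 ± 0.32). Cntn6 fell from 150.2 to 17.7 CPM in w4 and from 207 to 34.9 in w8 (log2 change -2.71 ± 0.22). The adhesion molecules that fell were thus members of several families. Among cadherins, Pcdh15 fell from 2084 to 481 CPM in w4 and from 2198 to 509 in w8 (log2 change -1.59 ± 0.29). Cdh10 fell from 1089.6 to 288 CPM in w4 and from 1232 to 355 in w8 (log2 change -1.46 ± 0.25). Without w4 Cntn2 was not called.

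Potassium channels gained more than they lost. Of 57 tested, 26 (45.6%) rose and 10 fell, with a median of 0.687, and DESeq2 called 13 higher and 8 lower. Kcnip4, an accessory subunit of A-type channels, rose from 655 to 9026 CPM in w4 and from 473 to 7718 in w8 (log2 change 3.50, standard error 0.38, adjusted p = 1.3e-10). Kcnd2, the pore subunit with which it assembles, rose from 2257 to 4828 CPM in w4 and from 2518 to 4805 in w8 (log2 change 1.33 ± 0.26). Kcnh5, an ether-a-go-go channel, rose from 4.75 to 27.6 CPM in w4 and from 0 to 30.7 in w8 (log2 change 2.45 ± 0.35). No GCimm2 sum reached a GCyoung sum. There were losses besides Kcnh8 and Kcnq5. Kcnmb2, which inactivates calcium-activated channels, fell from 39.7 to 2.79 CPM in w4 and from 20.0 to 4.18 in w8 (log2 change -3.33 ± 0.33). Kcnc2, a subunit of fast-spiking cells, fell from 63.4 to 6.08 CPM in w4 and from 33.3 to 6.27 in w8 (log2 change -3.15 ± 0.33). Without w4, 5 of the list were called higher and 2 lower, Kcnip4 and Kcnq5 among them, while Kcnd2, Kcnh5, Kcnmb2 and Kcnc2 were not called.

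Other channels moved less uniformly. Sodium channels and the FGF12 family had 3 higher and 3 lower of 15, or 20.0% each (2 and 2 with DESeq2, 1 and 1 without w4). Over all genes 9.27% were higher and 9.62% lower. In this list Scn3b had a log2 change of 1.04 ± 0.19, the NALCN partner Unc80 of 1.34 ± 0.20 and Scn9a of -1.61 ± 0.25. The list of voltage-gated calcium channels had 6 higher and 2 lower of 22, but 2 and 2 with DESeq2 and 1 and 0 without w4. It counts by name the AMPA receptor subunits Cacng3 and Cacng8 (log2 change 0.77 ± 0.20), which rose, and Cacng4, which fell, and Cacng3 and Cacng4 are described above. Cacnb2, an auxiliary subunit, rose from 636 to 1399 CPM in w4 and from 746 to 1401 in w8 (log2 change 1.19 ± 0.24). Cacna1g, a low-threshold T-type channel, fell from 74.2 to 11.9 CPM in w4 and from 53.3 to 18.1 in w8 (log2 change -2.30 ± 0.26). The sums of the stages did not overlap for either gene. TRP, anoctamin and chloride channels had more losses by count, with 10 lower (35.7%) and 4 higher (14.3%) of 28 (median -0.538). Without w4 the balance turned, with 1 lower and 3 higher, and DESeq2 called 2 higher and 8 lower. Summed over its members the list rose, from 2480 to 3430 CPM in w4 and from 2170 to 3760 in w8. Trpc6, a cation channel, rose from 18.1 to 324 CPM in w4 and from 26.6 to 340.2 in w8 (log2 change 4.00, standard error 0.30, adjusted p = 2.1e-15). Ano3 rose from 73.4 to 462 CPM in w4 and from 73.3 to 484 in w8 (log2 change 2.46 ± 0.29). The initial segment genes included Sptb, a spectrin, at log2 change 1.12 ± 0.19 and the axonal adhesion molecule L1cam at log2 change -1.88 ± 0.23. Scn3b, Cacnb2, Cacng8, Cacna1g, Sptb and L1cam lost the call without w4.

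Among genes of calcium handling 8 stores, pumps and exchangers were higher and 2 lower of 27 (5 and 2 with DESeq2, 2 and 0 without w4), and 7 calmodulin-dependent kinases and calcineurin genes higher and 4 lower of 22 (7 and 2 with DESeq2, 3 and 1 without w4). Calcium-binding proteins had 4 higher and 4 lower of 23, or 17.4% each (3 and 4 with RLE factors and with DESeq2, 3 and 0 without w4). Over all genes the shares were 9.27% and 9.62%. Ryr2, which releases calcium from the endoplasmic reticulum, rose from 782 to 1876 CPM in w4 and from 939 to 1939 in w8 (log2 change 1.39 ± 0.25). Atp2b2, a pump of the plasma membrane, rose from 126 to 334 CPM in w4 and from 153 to 317 in w8 (log2 change 1.58 ± 0.20). Slc8a1, the sodium-calcium exchanger, fell from 1470.2 to 515 CPM in w4 and from 1486 to 703 in w8 (log2 change -1.02 ± 0.25). All of these were read in both stages. Camk2a, the kinase of long-term potentiation, rose from 540.3 to 1159 CPM in w4 and from 539.6 to 1102 in w8 (log2 change 1.29 ± 0.23). Camk1d rose from 56.1 to 192 CPM in w4 and from 133 to 231 in w8 (log2 change 1.79 ± 0.19). Both kinases were already read in GCimm2. Camk4, which acts in the nucleus, fell from 460.0 to 133 CPM in w4 and from 499.6 to 147 in w8 (log2 change -1.40 ± 0.26). Calb2, calretinin, the buffer that precedes Calb1, was called lower (log2 change -2.57, standard error 0.35, adjusted p = 8.8e-08) at 17.7 and 2.72 CPM in w4, but had no UMI in either w8 sum, and it was not called without w4. Neither was Slc8a1.

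Cyclic nucleotide genes rose in 12 and fell in 6 of 31 (9 and 3 with DESeq2). Adcy1, a calcium-stimulated adenylyl cyclase, rose from 20.3 to 160.3 CPM in w4 and from 20.0 to 140.1 in w8 (log2 change 3.19, standard error 0.23, adjusted p = 4.7e-16). The phosphodiesterase Pde7b rose from 19.4 to 222 CPM in w4 and from 13.3 to 252 in w8 (log2 change 3.47 ± 0.26). Pde4b fell from 424 to 90.3 CPM in w4 and from 306 to 92.0 in w8 (log2 change -1.78 ± 0.26). The phosphodiesterases thus moved in opposite directions. Of 48 genes of diacylglycerol, inositol and lipid phosphate signalling 13 rose and 5 fell. The lipid phosphatase Inpp4b rose from 3.45 to 79.5 CPM in w4 and from 13.3 to 53.0 in w8 (log2 change 3.87 ± 0.40). The diacylglycerol kinase Dgkg rose from 93.2 to 479.7 CPM in w4 and from 66.6 to 405 in w8 (log2 change 2.65 ± 0.24). Pik3r1, the regulatory subunit of PI3 kinase, fell from 238 to 24.5 CPM in w4 and from 173 to 24.4 in w8 (log2 change -2.79, standard error 0.24, adjusted p = 1.2e-13). The 6 genes named here were also called without w4, where the counts of either list dropped to 4 higher and 1 lower.

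Single regulators of signalling enzymes moved as well. Rasgrf1, a calcium-dependent Ras activator, rose from 47.5 to 465 CPM in w4 and from 40.0 to 441 in w8 (log2 change 2.99 ± 0.31). Dock10, an exchange factor for small GTPases, rose from 148 to 939 CPM in w4 and from 133 to 959.9 in w8 (log2 change 2.74 ± 0.28). Both were high in both GCyoung sums. Vav2, an exchange factor downstream of surface receptors, fell from 60.0 to 5.45 CPM in w4 and from 33.3 to 0.697 in w8 (log2 change -3.09 ± 0.27). Rgs7bp, which anchors RGS proteins, rose from 239 to 579 CPM in w4 and from 233 to 605 in w8 (log2 change 1.37 ± 0.24). These 4 calls held without w4.

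**Figure D4:**
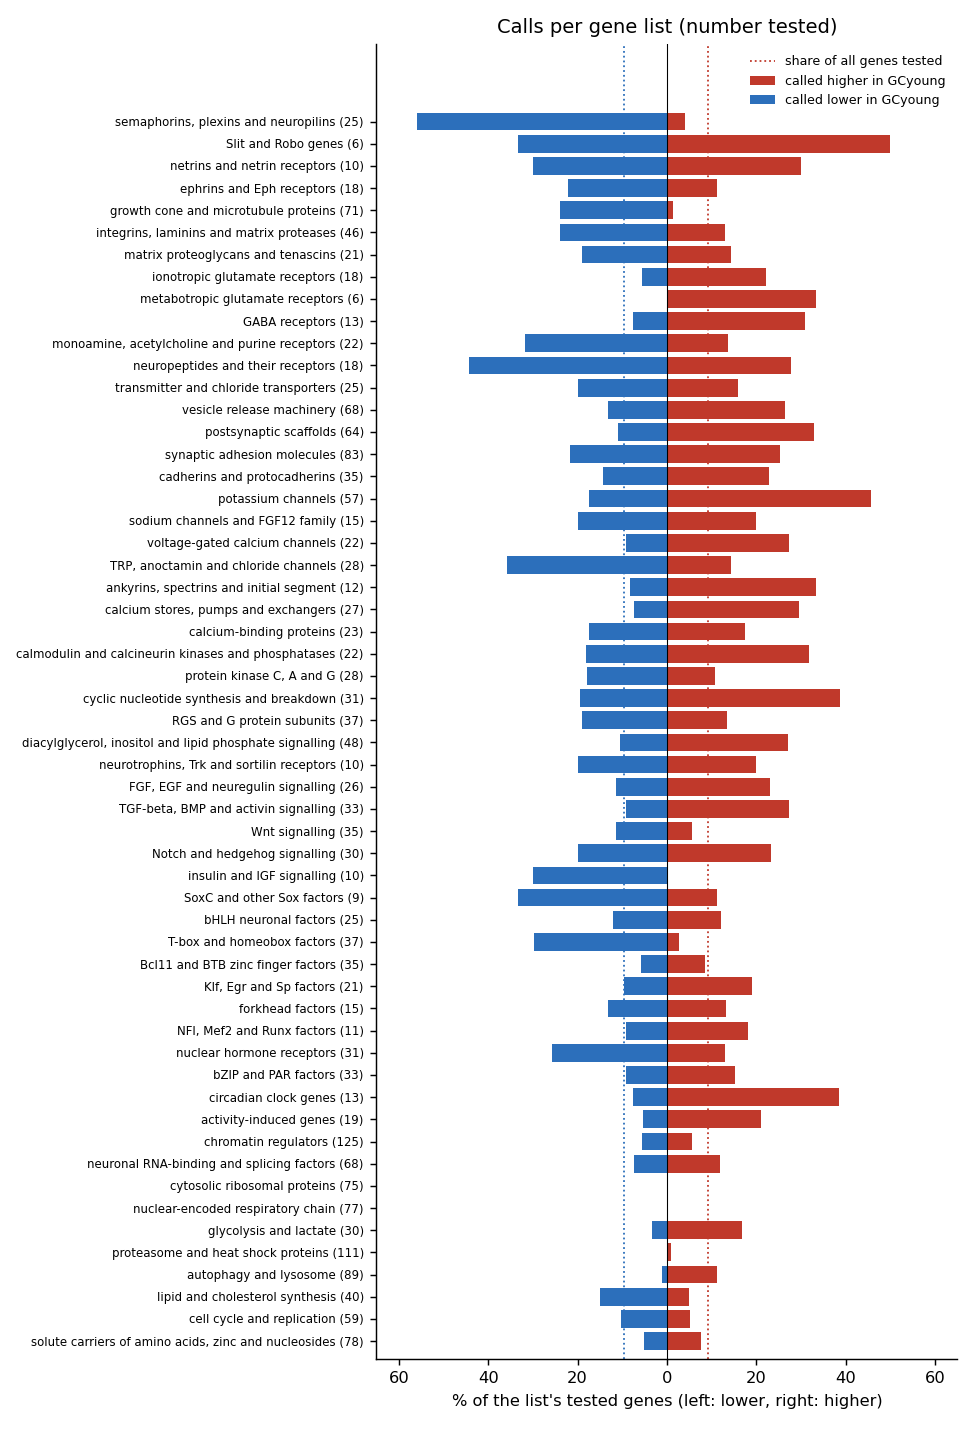
Share of the tested genes of each gene list drawn that were called higher (red, right) or lower (blue, left) in GCyoung than in GCimm2, in percent, with the number tested in brackets and dotted lines at the shares over all genes tested (9.27% higher, 9.62% lower). Semaphorins, plexins and neuropilins reach furthest to the left at 56%, Slit and Robo genes (6 tested) furthest to the right at 50% and potassium channels follow at 45.6%. The dotted lines are not matched to any list for gene span or level, with both of which calls became more frequent.

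Receptors and ligands of growth factors also changed. Fgfr1, a receptor of fibroblast growth factors, fell from 535 to 79.99 CPM in w4 and from 486 to 99.7 in w8 (log2 change -2.09, standard error 0.24, adjusted p = 1.0e-09). Its ligand Fgf1 fell from 30.6 to 2.72 CPM in w4 and from 26.6 to 0.697 in w8 (log2 change -3.08 ± 0.33). Both genes were lower in both GCyoung sums. Another ligand of the family, Fgf5, went the other way, from 0.863 to 8.30 CPM in w4 and from 0 to 6.97 in w8 (log2 change 4.09 ± 0.73), a call that was lost without w4, and its w8 count of 0 allows up to 20.0 CPM. Over the list of FGF, EGF and neuregulin signalling 6 rose and 3 fell of 26, but DESeq2 called 1 higher and 3 lower, RLE factors gave 4 and 4, and without w4 there were 0 higher and 3 lower. TGF-beta, BMP and activin genes had 9 higher, Smad3 first, and 3 lower of 33, but 3 and 3 with DESeq2 and 3 and 1 without w4. Bdnf, the neurotrophin, went from 99.3 to 116 CPM in w4 and from 13.3 to 88.5 in w8 (log2 change 0.66, standard error 0.23, adjusted p = 0.032), and this call was lost with RLE factors, with DESeq2, with no library term, in each sex alone, without w2 and without w8, among other alternatives. Sorcs2, a sorting receptor of the neurotrophin system, fell from 446 to 139 CPM in w4 and from 353 to 165 in w8 (log2 change -1.21 ± 0.21). Notch and hedgehog genes had 7 higher and 6 lower of 30 (4 and 5 with DESeq2, 2 and 1 without w4), with the coactivator Maml2 at log2 change 2.09 ± 0.26 and the Notch ligand Dner at log2 change -2.32 ± 0.24. Wnt genes had 2 higher and 4 lower of 35, near the 18.9% called over all genes (0 and 1 without w4), and insulin and IGF genes 0 higher and 3 lower of 10 (0 and 0 without w4, with 1 at an unadjusted p under 0.05). The Sorcs2 call was lost without w4.

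Transcription factors changed in both directions. T-box and homeobox factors had 11 lower and 1 higher of 37 (median -0.62, 1 and 7 with DESeq2, 1 and 2 without w4), but 6 of the 11 moved downward in both libraries. The one that rose was Mkx, from 13.8 to 139 CPM in w4 and from 40.0 to 132 in w8 (log2 change 2.94 ± 0.26). Tbr1, a factor of glutamatergic precursors, fell from 13.8 to 5.76 CPM in w4 and from 60.0 to 4.18 in w8 (log2 change -1.35 ± 0.35), a call that was lost in male nuclei and in nuclei thinned to 2000 UMIs. Nuclear receptors had 8 lower (25.8%) and 4 higher (12.9%) of 31 (4 and 6 with DESeq2, 2 and 2 without w4). The higher share was not far from the 9.27% over all genes. Nr3c1, the glucocorticoid receptor, rose from 10.4 to 70.4 CPM in w4 and from 0 to 60.0 in w8 (log2 change 3.04, standard error 0.23, adjusted p = 4.6e-15). Rora, an orphan nuclear receptor, rose from 94.1 to 364 CPM in w4 and from 113 to 418 in w8 (log2 change 2.10 ± 0.25). Its relative Rorb fell from 88.5 to 17.3 CPM in w4 and from 113 to 15.3 in w8 (log2 change -1.91 ± 0.33). Both receptors were read in both stages of w4.

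Single factors of other families also moved. Foxo1, a forkhead factor inhibited by insulin signalling, rose from 19.4 to 102 CPM in w4 and from 26.6 to 99.7 in w8 (log2 change 2.33 ± 0.24). Glis3, a zinc finger factor of granule cells, rose from 53.1 to 202 CPM in w4 and from 46.6 to 208 in w8 (log2 change 2.39 ± 0.25). Runx2 rose from 40.6 to 125 CPM in w4 and from 66.6 to 137 in w8 (log2 change 1.77 ± 0.21). Each was higher in both GCyoung sums than in either GCimm2 sum. Bach2, a repressor of the bZIP family, fell from 621 to 135.3 CPM in w4 and from 546 to 139 in w8 (log2 change -1.77 ± 0.23). Klf7, which supports axon growth, fell from 225 to 111 CPM in w4 and from 233 to 89.9 in w8 (log2 change -0.91 ± 0.21). Clock genes had 5 higher and 1 lower of 13. The largest increase was that of Npas2, a partner of BMAL1, from 12.9 to 32.6 CPM in w4 and from 0 to 22.3 in w8 (log2 change 2.04 ± 0.37). Cry2, a repressor of the clock, rose from 62.1 to 108 CPM in w4 and from 40.0 to 73.2 in w8 (log2 change 0.97 ± 0.20). Both stages of a library come from the same pool of mice. Without w4, 0 of the 13 clock genes were called by edgeR, with 2 at an unadjusted p under 0.05, and DESeq2 on all libraries called 2 higher and 0 lower, Npas2 not among them.

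Among genes of general upkeep, those of ribosomes, respiration and the proteasome were seldom called. With edgeR, 0 of 75 cytosolic ribosomal proteins and 0 of 77 nuclear-encoded subunits of the respiratory chain were called, with 2 and 7 at an unadjusted p under 0.05, and DESeq2 called 0 of either. Their medians were -0.102 and 0.118. The summed level of the ribosomal proteins was 2230 CPM in GCimm2 and 1630 in GCyoung of w4, and 1330 and 1050 in w8. The 1330 CPM of w8 GCimm2 were shared by 78 genes, where a count of 0 allows up to 20.0 CPM. Few calls among such low genes therefore need not mean that they did not change. Of 111 proteasome and heat shock genes 1 was called, a higher one, while with RLE factors 0 were higher and 3 lower. Of 125 chromatin regulators 7 rose and 7 fell (7 and 11 with RLE factors, 6 and 10 with DESeq2, 0 and 2 without w4), fewer than the share called over all genes. Dnmt3a, a DNA methyltransferase, rose from 62.1 to 121 CPM in w4 and from 60.0 to 109 in w8 (log2 change 1.12 ± 0.20). Autophagy and lysosome genes had 10 higher (11.2%) and 1 lower (1.12%) of 89 (3 and 2 with DESeq2, 1 and 0 without w4). The higher share was near the 9.27% over all genes and the lower share was under the 9.62%. Among those higher was the lipid transfer protein Vps13c, from 109.6 to 254 CPM in w4 and from 79.9 to 282 in w8 (log2 change 1.47 ± 0.19). Its sums did not overlap between stages. Glycolysis genes had 5 higher and 1 lower of 30, a share near the 18.9% over all genes, though DESeq2 on all libraries and edgeR without w4 each called 0 higher and 1 lower. Lipid and cholesterol synthesis, called about as often, had 6 lower and 2 higher of 40 (1 and 7 with DESeq2, 0 and 0 without w4 with 4 at an unadjusted p under 0.05), for example the fatty acid elongase Elovl6, from 193 to 81.8 CPM in w4 and from 179.9 to 92.7 in w8 (log2 change -0.84 ± 0.18). Among 68 neuronal RNA-binding factors 8 rose and 5 fell, again about the share called over all genes (3 and 1 without w4). Mbnl2, a splicing factor of mature neurons, rose from 182 to 447 CPM in w4 and from 147 to 419.6 in w8 (log2 change 1.39 ± 0.21). Elavl2, a neuronal RNA stabilizer, fell from 39.7 to 8.11 CPM in w4 and from 60.0 to 13.2 in w8 (log2 change -2.02 ± 0.27). Dnmt3a and Elovl6 lost the call without w4.

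Related genes called in opposite directions were drawn as 12 pairs, which were chosen after their values were seen, so that they illustrate such exchanges and test nothing. In w4 the level of Slc17a6 ran from 58.5 CPM in GCimm1 and 36.2 in GCimm2 to 2.66 in GCyoung and 1.39 in the mature stage GCmat1, against 28.9, 66.5, 157 and 159 of Slc17a7. Slit2 went from 217 through 292 to 55.9 and 37.2 CPM in the same stages of w4, and Slit1 from 3.08 through 4.32 to 147 and 316. In this library Slit1 thus stood higher in GCmat1 than in GCyoung and Slit2 lower.

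**Figure D5:**
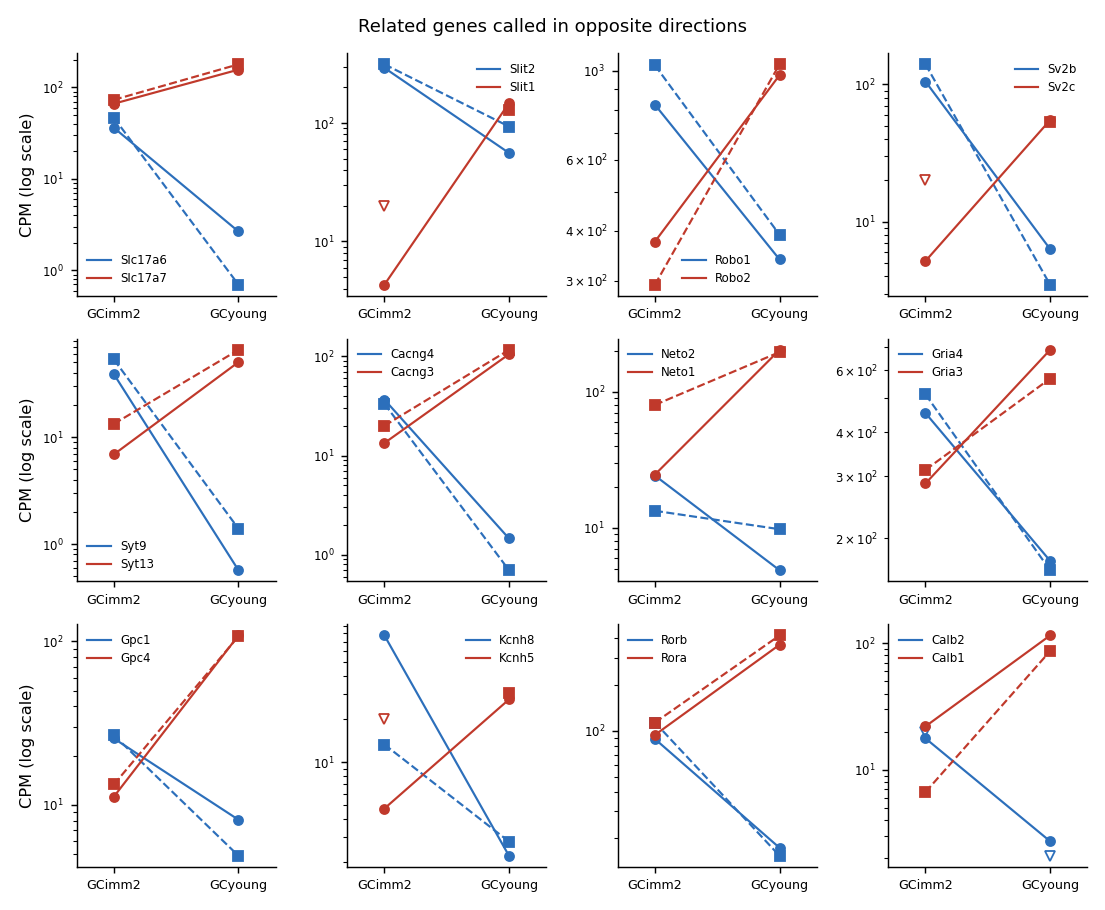
CPM (log scale) of 12 pairs of related genes in GCimm2 and GCyoung of w4 (circles, solid lines) and w8 (squares, dashed lines), with the gene called lower in blue and the gene called higher in red, and open triangles, joined by no line, at the value of 3 UMIs where the count was 0 (both w8 sums of Calb2 and the w8 GCimm2 sums of Slit1, Sv2c and Kcnh5). In w4 both members of every pair move in opposite directions, as Slc17a6 from 36.2 to 2.66 CPM and Slc17a7 from 66.5 to 157.

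Within GCyoung the change was not all at one place. The w4 nuclei of GCyoung were divided by the authors' pseudo-time into 548 early ones (below 26), 1066 middle ones (26 to 28) and 365 late ones, a division made after the values were seen and described without a test, since pseudo-time is computed from expression. Some of the steepest losses had already happened in the early nuclei. Lypd6 stood at 98.4 CPM in GCimm2, 3.33 in early, 0.707 in middle and 0.714 in late GCyoung, and Sema3c at 535, 18.7, 12.97 and 9.63. Other losses came later. Chrm3 stood at 214, 151, 16.6 and 5.35 CPM, Slc8a1 at 1470.0, 1005, 352 and 217, and Gabrg3 at 599, 397, 228 and 158.

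Gains had the same kinds of course. Slit1 climbed from 4.32 CPM in GCimm2 through 50.6 and 156 to 274 in late GCyoung, and Inpp4b from 3.45 through 10.2 and 89.5 to 161. Calb1 had 22.01, 106, 114 and 131 CPM, so that most of its increase lay between GCimm2 and early GCyoung. A few genes were highest in the early nuclei. Il1rapl2 went from 35.8 to 379.6 and then to 159.6 and 196, and Dgkg from 93.2 to 569, 472 and 361. Of 944 genes called higher that moved that way in both libraries and reached 20 CPM in 1 of the 3 parts of GCyoung, 254 were at least 1.5 times as high in late as in early nuclei, 46 at least 1.5 times as high in early as in late, and 644 neither. Of 410 such genes called lower, which by this minimum leaves out those already silent, 247 were at least 1.5 times as high in early as in late nuclei and 12 the reverse.

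The change touched long genes more often, in both directions. Of 2292 tested genes with a span of at least 100 kb from first to last annotated base, 19.5% rose and 16.0% fell, against 7.16% and 8.28% of the 11167 shorter ones and 5.13% and 5.61% of the 2906 under 10 kb. Reads in introns were counted, so long genes gather more UMIs in nuclei, and the part of this in the shares was not tested. Whether the share called in a gene list exceeds that of other genes of like span and level was not tested either.

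Marker lists of other cell types were summed in each stage. Summed astrocyte markers were 255 and 253 CPM in GCimm2 and GCyoung of w4 and 213 and 216 in w8, with 1 of 10 called, Slc1a3, from 7.34 to 28.9 CPM in w4 and from 6.66 to 17.4 in w8 (log2 change 1.91 ± 0.37). Without w4 that call was lost and Glul, glutamine synthetase, was called lower, as it was in nuclei thinned to 2000 UMIs. Microglia markers were 42.3 and 43.7 CPM in w4 and 79.9 and 56.5 in w8, with 0 of 3 called (0 at an unadjusted p under 0.05), and precursors of oligodendrocytes were at 9.93 and 8.61, and 13.3 and 2.79, with 0 of 2 called (1). Interneuron markers were 102 and 65 CPM, and 120 and 48.1, with 0 of 3 called (1). Summed oligodendrocyte markers were 133 and 281 CPM in w4 and 167 and 293 in w8, with 2 of 5 higher and 1 lower. Of these, St18, also a neuronal transcription factor, took 63.4 and 208 in w4 and 73.3 and 229 in w8. Mbp, the myelin basic protein, rose from 39.3 to 58.6 CPM in w4 and from 46.6 to 53.7 in w8 (log2 change 0.66 ± 0.24), a call that was lost with several alternatives, among them DESeq2, RLE factors and leaving out w4. Mog fell from 15.5 to 1.71 CPM in w4 and from 26.6 to 0.697 in w8, a call that was lost without w4. Mossy and CA3 markers were 543 and 402 CPM in w4 and 400 and 427 in w8, with 2 of 7 lower, and Csf2rb2 and Cpne7 had no UMI in the 4 sums. Progenitor markers were 11.2 and 29.0, and 33.3 and 25.1 CPM, with 1 of 7 called, Mki67, whose direction differed between w4 and w8 and whose call was lost with DESeq2 and without w4. The part of such RNA in the results was not tested.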

How the data were processed

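Nuclei of 4 libraries (w1, w2, w4 and w8) were aligned by the authors to the mouse genome GRCm38 (mm10) with STARsolo 2.7.4a (the version per the submitters' processing notes), reads in exons and introns being counted per gene and UMI. The authors removed doublets with scDblFinder, clustered the nuclei, ordered them in pseudo-time and left out w4 nuclei that they thought could come from 1 male animal. The deposited matrices hold raw UMI counts of 45706 features in 17046 barcodes. The deposited table holds log2 values, log2(count divided by a scran size factor, plus 1), of 13353 genes in the 14367 nuclei kept, with each nucleus's cluster and pseudo-time. The sex calls used here were made from the raw counts, as Ddx3y, Uty and Eif2s3y against Xist and Tsix. Of the table's genes, 12209 were matched to the counts by symbol and values and 1144 by values alone.

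For every cluster and library with at least 10 nuclei, the raw UMI counts were added up and tested with edgeR 4.0.16 (filterByExpr, TMM, glmQLFit, glmQLFTest; R 4.3.3) with cluster and library terms over 29 sums, which leaves 16 residual degrees of freedom. The contrast was GCyoung minus GCimm2, and a gene was called at an adjusted p (Benjamini-Hochberg) of 0.05 or less and a fold change of at least 1.5. Errors are standard errors of the log2 change. Since w2 has 9 GCyoung nuclei, it gives no pair. The libraries are separate pools of mice and only 2 of them hold both clusters. Each week is 1 pool, so no p-value here measures the spread between pools of the same week. The error in the test comes from how far the 29 sums depart from the cluster and library terms, and most of these sums are of other clusters. The fit of only the 4 sums of GCimm2 and GCyoung in w4 and w8 leaves 1 residual degree of freedom. The pairing of clusters comes from the design, as both clusters of a library are nuclei of the same pool. On simulated counts of 13513 genes for this contrast, 84 of 100 genes changed 3-fold and 32 of 100 changed 1.75-fold were called, with 4 false calls. The simulation gave every gene the same dispersion and each cluster the same mean in every library, and few genes changed. It holds no difference between pools, weeks or sexes, so it does not show how many false calls the real libraries give.

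Named genes are the 12 largest increases and decreases among called genes of the same direction in w4 and w8 with at least 50 UMIs, and in each of the gene lists outside other cell types up to 3 in each direction under the same conditions. Dcx, Plxna2, Kcnd2, Camk2a, Calb2, Cry2, St8sia2 and Ncam1, the members given as not passing and the genes of other cell types were picked besides. The comparison, the lists and these tests were chosen with earlier results of these data known. Alternatives were DESeq2 1.42.0, RLE factors, other filters and sets of sums, nuclei of each sex, nuclei thinned to 2000 UMIs, the deposited log2 values and each library left out. Depth limits low genes, and the limits from a count of 0 (3 UMIs) cover counting error only.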

Additional observations from a re-analysis of the deposited data

How the results depend on the processing

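The counts of 2553 called, 1253 higher and 1300 lower genes were recomputed under 18 alternatives, and the cause of a difference was not tested unless the setting shows it. Leaving out 1 library gave 487 to 2618 called genes, 274 to 1340 higher and 213 to 1278 lower, the lowest in each case without w4, where 470 of the 487 were also called with all libraries. DESeq2 called 682 higher and 1152 lower, 1834 in all. Nuclei called male gave 1416 (811 higher, 605 lower). Nuclei thinned to 2000 UMIs gave 1627 (782 lower), with 9206 genes left to test. A fold change of at least 2 left 1655 (704 higher). The mean of the deposited log2 values per nucleus, with no test, passed 1.5-fold for 255 genes (189 higher, 66 lower). RLE factors called 2643, 1057 higher and 1586 lower. The fit without the library block called 2233, of which 2090 were also called with it. The test of w8 against w4 gave 1 gene with no filter on low counts. Of the 154 genes named here, 52 kept their side of the thresholds under each of the 18 alternatives that gave them a value, and 61 if leaving out w4 is not counted, with no reversal among these values. The log2 means, thinning, male nuclei and the fit of only the 4 sums of w4 and w8 gave a value for 144 to 153 of the 154, and the other alternatives for all of them. The small w8 GCimm2 sum of 150112 UMIs limits what can be seen of genes under 20.0 CPM there.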

Other observations

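Some genes of GCimm2 and GCyoung are not in the authors' table of log2 values and were read from the raw counts alone. Of 1058 such genes tested, 101 (9.55%) were called, 49 higher and 52 lower in GCyoung, against 2452 of 12455 (19.7%) in the table. Among genes of at least 200 CPM in w4, 40 of 207 outside the table were called, 30 higher and 10 lower, against 308 of 706 (43.6%) in the table. The genes given here were picked after their values were seen. Malat1, a nuclear noncoding RNA, went from 42460.0 to 72910.0 CPM in w4 and from 35454 to 61455 in w8 (log2 change 1.07 ± 0.35), and this call was lost with several alternatives, among them without w2, without w4 and without w8. Kalrn, an exchange factor of dendritic spines, rose from 1162 to 2683 CPM in w4 and from 1072 to 2583 in w8 (log2 change 1.51 ± 0.25). Ppp3ca, the catalytic subunit of calcineurin, rose from 1868 to 3360.0 CPM in w4 and from 1752 to 3505 in w8 (log2 change 1.16 ± 0.24). Ppp3ca was not called without w4.

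Ccnd2 and Slc30a3 were highest in early GCyoung, in the division of w4 nuclei by pseudo-time that was made after the values were seen. Ccnd2, a cyclin that adult neurogenesis depends on, stood at 39.7 CPM in w4 GCimm2 and at 94.2, 79.7 and 51.0 in early, middle and late GCyoung (log2 change 1.21 ± 0.24 over the whole step), a call that DESeq2 did not make. Slc30a3, the zinc transporter of mossy fibre vesicles, stood at 20.3, 82.4, 65.3 and 57.8 (log2 change 1.53 ± 0.30), a call that was lost with DESeq2 and without w4. In w2 only 9 nuclei were GCyoung. Their sum of 98727 UMIs entered only the fit with at least 5 nuclei per sum.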
